A study of Mus musculus with 14 samples.

Results

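Histone H3 trimethylated at lysine 4 (H3K4me3) was mapped by chromatin immunoprecipitation with sequencing in ATDC5, a mouse teratocarcinoma line (AT805) that turns into cartilage-forming cells in culture. The 3188 regions described here carried an H3K4me3 peak in both libraries of day 3 of differentiation and in neither library of day 0. They were 8.81% of the 36171 regions obtained by merging all overlapping peaks of those 4 deposited lists, and the whole series of 12 lists gave 42888 merged regions. The opposite case, a peak in both day 0 lists and neither day 3 list, held for 4 regions (0.0111% of 36171).

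Day 0 cells were unmanipulated ATDC5 kept by serial passage in medium with serum. Day 3 and day 10 cells were the same line, spotted as dense droplets and switched to a medium with beta-glycerophosphate and an ascorbate salt. Each day had 2 H3K4me3 libraries and 2 RUNX2 libraries, RUNX2 being the transcription factor that drives cartilage maturation and bone formation. The labels name no genetic change in any group, and ATDC5 is 1 clonal line, so the replicates do not sample other cells. Nothing in the labels ties the replicates to cultures grown apart, and their spread may therefore reflect handling alone.

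H3K4me3 is placed on nucleosomes round active or poised transcription starts by the SET1 and MLL enzyme complexes, which are drawn to unmethylated CpG islands and to working promoters. Weaker H3K4me3 also occurs at strong enhancers. In cartilage, chondrocytes lay down a matrix of type II, IX and XI collagens and the proteoglycan aggrecan under the control of SOX9, and later swell, mineralise the matrix and switch on hypertrophy genes under RUNX2. Which promoters and distant sites take up the mark as ATDC5 cells leave the undifferentiated state is the question that the day 0 to day 3 comparison addresses.

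The promoters below overlapped gained regions, that of Ihh only in its last part, and are shown for their spread of CpG content. They run from 250 bases before to 50 bases after a transcript start, come from RefSeq (GRCm38.p6), and carry each CpG dinucleotide in capitals. Acan encodes aggrecan, Fmod the collagen-binding fibromodulin, Ihh the signal Indian hedgehog, and Adm the vasoactive peptide adrenomedullin. The Acan and Ihh promoters held 31 and 30 CpG, the Adm promoter 9 and the Fmod promoter 3.
Acan promoter, + strand, chr7:79052976-79053275: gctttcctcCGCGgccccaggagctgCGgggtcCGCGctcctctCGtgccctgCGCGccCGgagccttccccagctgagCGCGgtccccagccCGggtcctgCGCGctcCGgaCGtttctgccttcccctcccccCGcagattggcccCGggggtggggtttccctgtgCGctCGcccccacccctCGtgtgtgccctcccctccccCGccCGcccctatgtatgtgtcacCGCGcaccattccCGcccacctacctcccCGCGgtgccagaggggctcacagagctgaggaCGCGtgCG
Fmod promoter, + strand, chr1:134037004-134037303: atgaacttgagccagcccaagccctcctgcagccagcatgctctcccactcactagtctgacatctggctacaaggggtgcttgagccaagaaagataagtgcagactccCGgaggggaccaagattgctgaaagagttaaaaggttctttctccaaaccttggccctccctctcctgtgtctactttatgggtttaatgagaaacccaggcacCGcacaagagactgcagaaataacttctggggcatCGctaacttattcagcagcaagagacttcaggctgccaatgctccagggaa
Ihh promoter, - strand, chr1:74951623-74951922: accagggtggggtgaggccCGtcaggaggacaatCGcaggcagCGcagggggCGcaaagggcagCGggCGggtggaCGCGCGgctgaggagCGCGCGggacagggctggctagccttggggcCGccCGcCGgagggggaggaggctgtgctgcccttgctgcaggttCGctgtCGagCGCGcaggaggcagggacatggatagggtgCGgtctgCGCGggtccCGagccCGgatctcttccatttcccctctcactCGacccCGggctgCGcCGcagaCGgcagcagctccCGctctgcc
Adm promoter, + strand, chr7:110627407-110627706: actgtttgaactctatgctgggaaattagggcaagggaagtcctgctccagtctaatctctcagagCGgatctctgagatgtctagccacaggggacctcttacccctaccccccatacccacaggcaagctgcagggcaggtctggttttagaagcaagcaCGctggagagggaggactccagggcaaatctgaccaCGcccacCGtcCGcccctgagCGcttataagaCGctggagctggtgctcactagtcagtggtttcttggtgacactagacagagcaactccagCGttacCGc

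The promoter of Spp1, which encodes the mineral-binding protein osteopontin, is shown because it held letters that match known factor motifs. Capitals mark, in order, TATAAA, a reverse-strand match to the SOX motif ACAAAG, and a reverse-strand match to the RUNX core TGTGGT. They began 211, 168 and 128 bases before the start. The promoter held 3 CpG. Spp1 is a textbook RUNX2 target of bone and hypertrophic cartilage, and a letter match is a description, not a binding site.
Spp1 promoter, + strand, chr5:104434861-104435160: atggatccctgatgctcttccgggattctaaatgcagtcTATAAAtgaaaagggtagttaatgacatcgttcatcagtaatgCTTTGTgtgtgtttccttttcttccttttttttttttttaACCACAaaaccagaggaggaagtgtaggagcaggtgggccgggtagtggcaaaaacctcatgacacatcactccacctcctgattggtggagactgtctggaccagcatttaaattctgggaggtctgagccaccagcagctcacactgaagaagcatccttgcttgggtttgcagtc

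The label of the line was checked against marker genes, counting a gene as marked when a peak overlapped a window of 1 kb either side of an end of its span. Of 9 chondrocyte markers, 4 and 6 were marked in the 2 day 0 lists and 9 in each day 3 list. The 3 that were unmarked in both day 0 lists were Acan, Col9a1 and Matn3. Of 6 hypertrophic markers, none was marked on day 0 and Ihh, Spp1 and Panx3 were marked in both day 3 lists. The other hypertrophic markers, Col10a1, Mmp13 and Ibsp, were marked in neither day 3 list. Of 4 osteoblast markers, Sp7 and Alpl were marked in both lists of day 0 and of day 3, and Bglap and Dmp1 in none of these. Among markers of other cells, 3 of 4 adipocyte genes (Pparg, Plin1, Lipe), 2 of 3 blood genes (Cd68, Spi1) and 2 of 4 fibroblast and tendon genes (Pdgfra, Scx) were marked in both day 3 lists, of which Lipe, Cd68 and Pdgfra were unmarked in both day 0 lists. Epcam, Tubb3 and Sox2 were also marked in both day 3 lists, and the muscle markers Myod1, Myf5 and Acta1 in none. Of 4 endothelial markers 1, Kdr, was marked in every H3K4me3 list, while Cdh5, Pecam1 and Tek were not marked on days 0 or 3. Sox9, Col2a1 and Runx2, the master factor, main collagen and namesake factor of the system, already carried the mark on day 0. The region at the Col2a1 end had fold enrichments of 4.14 and 5.43 in the 2 day 0 lists and 20.3 and 9.78 on day 3, so it was not gained under the rule.

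The lists themselves differed in length, which bears on every count below. Day 0 had 13765 and 20863 peaks, day 3 had 28653 and 26781, and day 10 had 15219 and 29022. A longer list can show a gain where the mark was merely below the caller's threshold earlier, and absence from a list is not absence of the mark. Sequencing depth is unknown, because peak lists carry no read totals. Replicate 1 of day 0 also had the widest narrowest peak (295 bp, against 225 bp in replicate 2 and 214 and 215 bp on day 3).

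The control that the rule names is the number of regions held by 1 library of each day. These crosswise patterns held 133 regions (replicate 2 of both days), 23 (replicate 1 of both days), 367 (replicate 2 of day 0 with replicate 1 of day 3) and 4 (replicate 1 of day 0 with replicate 2 of day 3). The 3188 gained regions were 8.69 times the largest of them. Compared within replicate numbers, 16602 regions had a peak in day 3 but not in day 0 among the replicate 1 lists, and 94 the reverse. Among the replicate 2 lists the numbers were 9226 and 2226, so both pairs shifted the same way but by different amounts. No test was made for single regions, because the lists hold no value where no peak was called, and an exact permutation of 2 libraries against 2 cannot go below p = 0.333.

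The count and the set both moved with the peaks admitted. When each list was held to its 13765 strongest peaks, 688 regions were gained and 59 lost, and the crosswise patterns held 59, 164, 169 and 20 regions. Of those 688 regions 221 (32.1%) overlapped one of the 3188. That setting changes list length and peak strength together, so that their parts cannot be told apart. With only peaks of −log10 q of at least 5, where q is the caller's false discovery rate, 2733 were gained and 2 lost, the crosswise patterns held at most 182, and 1927 (70.5%) overlapped the 3188. The rule also depended on each library. Leaving out replicate 2 of day 0 gave 5992 gains and 90 losses. Leaving out replicate 1 of day 0 gave 3290 gains and 1853 losses. For day 3, the numbers were 10358 and 18 with replicate 1 left out, and 13686 and 6 with replicate 2 left out.

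**Figure D1:**
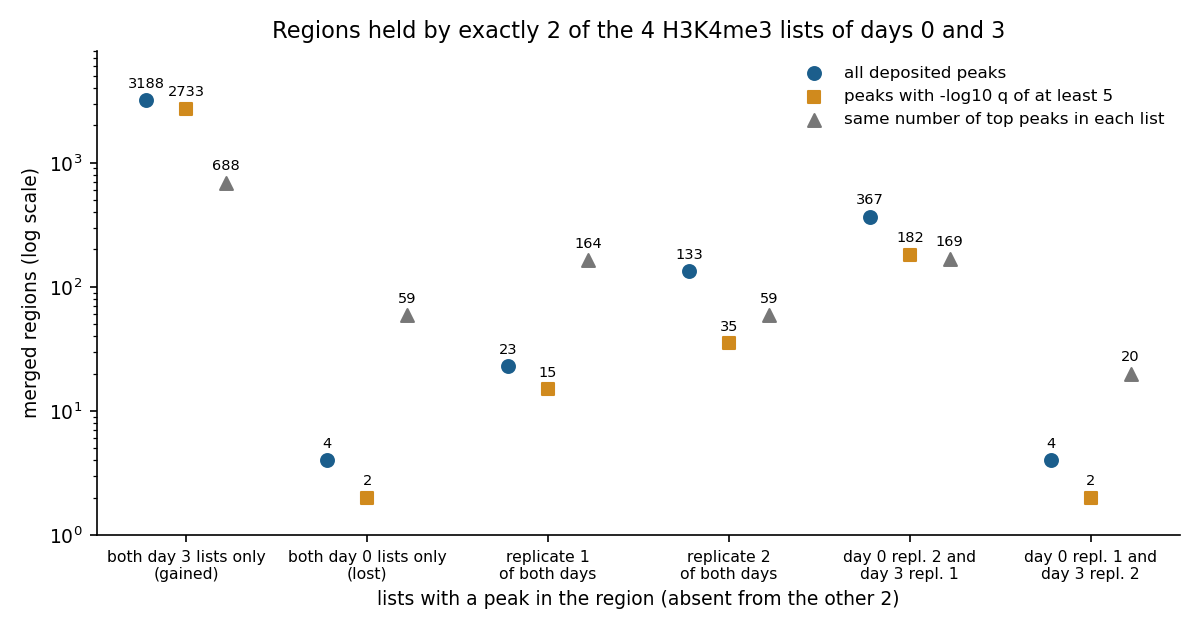
Number of merged regions (log axis) held by exactly 2 of the 4 H3K4me3 lists of days 0 and 3, for all deposited peaks, for peaks with −log10 q of at least 5, and for the same number of top peaks in each list. The regions of both day 3 lists (3188, 2733 and 688) are the most numerous class under all 3 settings.

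Gained regions were narrow and weak beside regions that kept the mark. Their median width was 739 bp (interquartile range 509 to 1033 bp, largest 5332 bp), against 1202 bp for the 2881 regions in both day 3 lists and 1 day 0 list and 2066 bp for the 11430 regions in all 4 lists. Their median fold enrichment over the caller's background was 7.60 in replicate 1 of day 3 and 4.85 in replicate 2. Regions of all 4 lists had medians of 23.6 and 9.92. Width and fold on day 3 belong to the lists that chose the regions, so these values are descriptions.

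Near the threshold the set was soft. The weaker of a region's best day 3 peaks had a −log10 q of 1.31 at the lowest, 5.97 at the median and 37.9 at the highest. It was under 2 in 66 gained regions (2.07%), under 5 in 1261 (39.6%) and 10 or more in 631 (19.8%). Just outside the rule stood 2881 regions with a peak in 1 day 0 list. That day 0 peak had a −log10 q under 2 in 33 of them (1.15%) and under 5 in 957 (33.2%). In all 3188 regions the 2 day 3 peaks overlapped each other, in 3023 by at least 0.5 of the shorter, and in 2914 each list held a single peak.

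The median distance to the nearest region covered on day 0 was 24986 bp, 430 gained regions (13.5%) lay within 2 kb of one, and 67.0% lay within 50 kb. For regions of replicate 1 or replicate 2 of day 3 alone the medians were 30397 and 91502 bp, with 16.4% and 8.85% within 2 kb. At Ctnnb1, the gene of beta-catenin, the gained region began 120 bp from a region already present on day 0.

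By position, gained regions lay further from promoters than regions present throughout. A coding transcript start lay within 1 kb for 473 of 3188 (14.8%, exact 95% interval 13.6 to 16.1%), against 32.0% (30.3 to 33.7%) of regions with 1 day 0 list and 71.9% (71.1 to 72.7%) of regions in all 4 lists. Another 7.94% lay at another end of a coding gene, 10.2% at an end of a noncoding gene, 28.1% inside a coding gene and 38.9% between genes. In all 4 lists the last 2 classes made up 3.99% and 3.39%. Regions found in a single day 3 list were still further from starts, with 5.06% and 2.95% at one. The contrast differed with the mean percentile of a region's fold within the 2 day 3 lists. From 40 to 60, 17.3% of gained regions and 56.4% of regions in all 4 lists lay at a start, and above 60 16.8% and 73.7%. From 20 to 40 the shares were 13.7% and 13.3% (6 of 45), and up to 20 they were 11.6% and 0% (0 of 29). The part of strength in the contrast was not tested. The intervals treat regions as independent and cover counting error only.

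**Figure D2:**
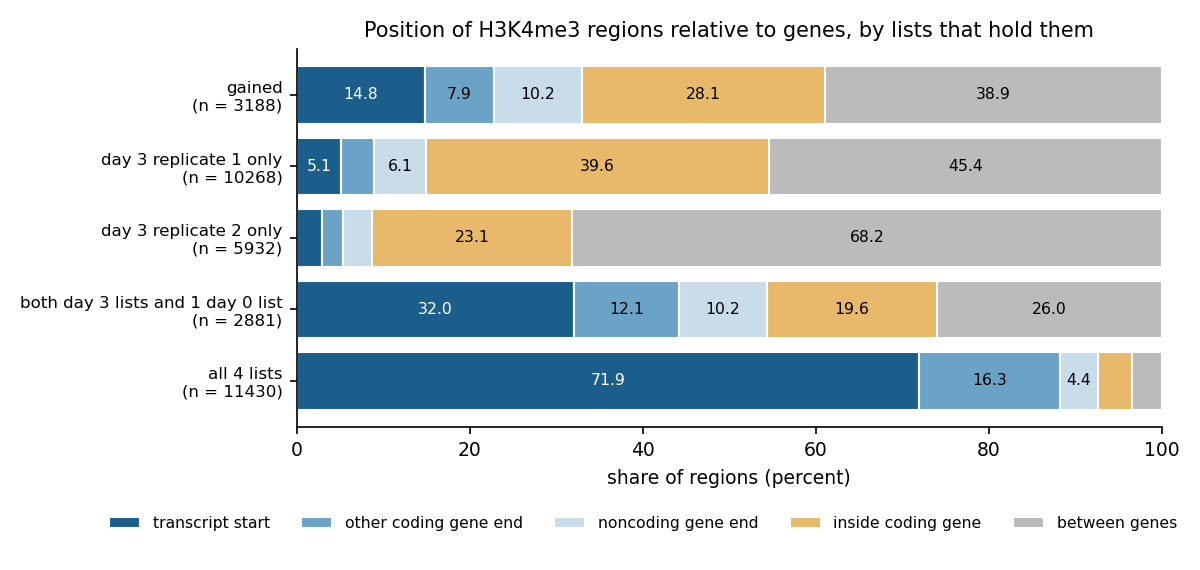
Share of regions (percent) at a coding transcript start, another coding gene end, a noncoding gene end, inside a coding gene or between genes, for 5 classes of H3K4me3 region. Gained regions (14.8% at a start) sit between the single-list day 3 regions (5.06% and 2.95%) and the regions of all 4 lists (71.9%).

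At the level of genes, 632 of 21887 protein-coding genes (2.89%) had a gained region within 1 kb of an end of the gene span. Of these, 160 already had a day 0 peak at one of their ends, which may be the opposite end of the span. The other 472 had none on day 0 and were 4.62% of the 10211 genes of that kind. Of 560 genes with no day 0 peak at an end but an end window covered in both day 3 lists, 96 had no gained region there. A day 3 peak in the window can be merged with a day 0 peak further off. Counted over the whole span with 1 kb beyond, 1549 genes (7.08%) held a gained region. The number of genes with one at an end was 1762 when the second day 0 library was left out, 1203 and 1349 when the first or the second day 3 library was, and 234 with equal numbers of top peaks.

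Of the 27 structural genes of the cartilage matrix 6 (22.2%) had a gained region at an end, against 2.89% of all coding genes: Acan, Matn3 and Matn4, which encode matrilins that link matrix fibres, Fmod, and the minor collagen genes Col9a2 and Col11a2. All 6 were among the 20 members with no day 0 peak at an end. This and the other lists were chosen with earlier results of these data known, so the contrast is a description and not a test. Another 4 members, Col9a1, Col9a3, Matn2 and Prelp, had one only further inside the span. At Col9a1 an end was covered in both day 3 lists, as the label check counted, but not by a gained region. With −log10 q of at least 5 the count was 5 of 27 (18.5%) against 711 of all coding genes, below the hypertrophy (22.2%) and neuronal (25%) lists at that setting, and with equal numbers it was 2 of 27 (Acan and Matn4) against 234. Leaving out 1 library at a time gave 6, 8, 7 and 10 of 27 (replicates 1 and 2 of day 0, then of day 3), while the share over all coding genes was 3.03%, 8.05%, 5.50% and 6.16%.

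Acan had the widest gained region of all, 5332 bp at chromosome 7, 79051951 to 79057282. It had no peak in either day 0 list, fold enrichments of 15.9 and 8.33 in replicates 1 and 2 of day 3, and of 12.5 and 7.75 on day 10. The day 3 summits lay 451 and 585 bp past the transcript start. RUNX2 peaks of day 3 overlapped it in both libraries, at 3.69 and 5.2-fold.

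Acan also had a set of gained regions upstream. One at 78989065 to 78992212, with summits -62355 and -62292 bp from the start, was stronger than the promoter region in both day 3 libraries, at 25.4 and 8.87-fold, and ranked seventh among all gained regions by mean percentile of fold. A region at 78952068 to 78955822 had 11.1 and 5.36-fold, and one at 78971160 to 78971960 had 6.82 and 3.21-fold. The first 2 carried a peak in both day 10 lists (5.33 and 7.07, then 4.7 and 6.87) and in both RUNX2 lists of day 3, while the last carried neither. In the stretch plotted round Acan the only region with a day 0 peak was that at the start of Mfge8, with day 3 summits 95649 and 95762 bp downstream of the Acan start.

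**Figure D3:**
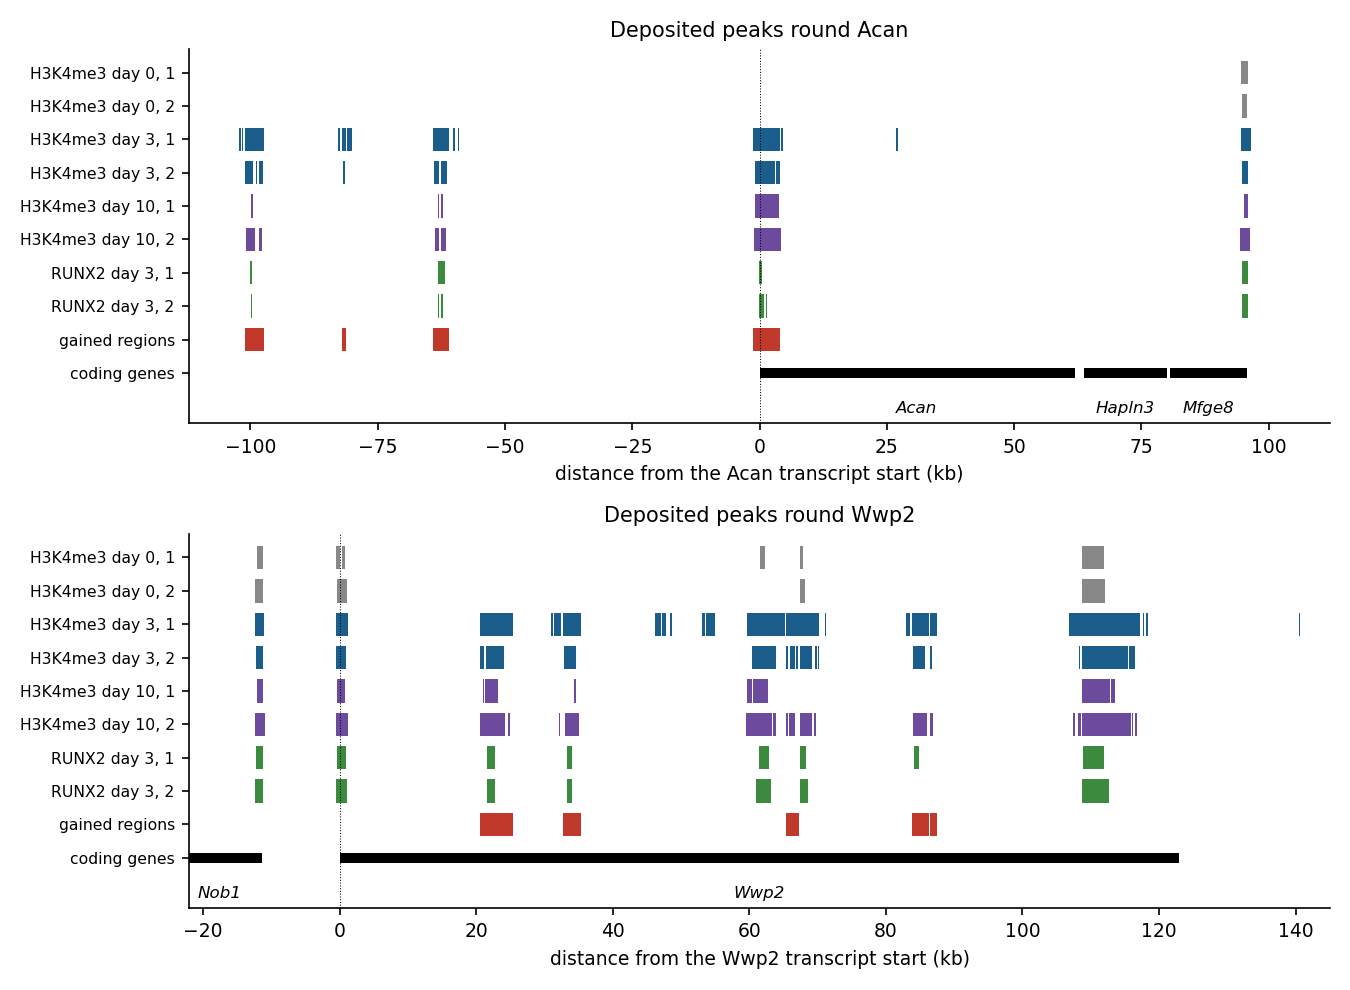
Deposited peaks of each library as blocks along the distance in kb from the transcript starts of Acan and Wwp2, with gained regions in red and coding genes in black. Round Acan the day 0 rows are empty except at Mfge8, while the 4 gained regions stand at the start and upstream. In Wwp2 the 5 gained regions lie between regions already marked on day 0.

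At the matrilin genes the gained regions were smaller. Matn4 gained 2, one with its summits 313 and 291 bp past the transcript start (7.13 and 6.2-fold on day 3, 6.03 and 5.17 on day 10) and a stronger one at the far end of the span, 164389224 to 164390015 on chromosome 2 (20.4 and 6.43-fold on day 3, 6.03 and 8.62 on day 10). Matn3 had 5.45 and 5.41-fold on day 3 and 4.82 and 4.52 on day 10, with summits 188 and 232 bp past its start on chromosome 12 (region 8947621 to 8948309). Matn3 thus had near the same fold in all 4 H3K4me3 libraries that had a peak. Fold is not on 1 scale across libraries, so this is not an equal level of the mark. The median fold over all peaks of a list was 9.79 and 6.98 on day 3 and 11.8 and 7.04 on day 10.

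For the collagens, Col11a2 was the strongest, with a 2333 bp region on chromosome 17 (34038711 to 34041043) at 14.7 and 5.35-fold on day 3 and 8.94 and 5.55 on day 10. Its product pairs with type II collagen in thin fibrils. Col9a2 was weak, at 4.64 and 3.83-fold on day 3 and 4.1 and 4.07 on day 10, and its summits lay 1101 and 1239 bp past the start, so that only the flank reached the window. Fmod had 8.57 and 6.29-fold on day 3 (chromosome 1, 134036796 to 134039407) and a peak in replicate 2 of day 10 alone (4.64). Prelp, a relative of fibromodulin, gained a region whose summits lay 199 and 180 bp past an internal start, at 13.3 and 7.77-fold on day 3 and 9.4 and 7.18 on day 10.

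Of the hypertrophy and mineralisation genes, 5 of 27 (18.5%) held a gained region at an end, against 2.89% of all coding genes. They were Spp1, Panx3, Dlx3, Ihh and Bmp3. All 5 were among the 15 members with no day 0 peak. This list too was chosen with earlier results of these data known, so the contrast is a description. The count was 6 of 27 with −log10 q of at least 5, and 2 of 27 (Spp1 and Panx3) with equal numbers of top peaks. With 1 library left out, in the same order, it was 5, 7, 6 and 5, beside the all-gene shares of 3.03%, 8.05%, 5.50% and 6.16%.

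Panx3, the gene of a pannexin channel found in chondrocytes nearing hypertrophy, had a 4952 bp region on chromosome 9 (37666282 to 37671233) at 19 and 7.13-fold on day 3 and 10.6 and 8.52 on day 10. Spp1 had 16.2 and 6.89-fold on day 3 and 6.21 and 10.2 on day 10 (chromosome 5, 104434735 to 104436991), with summits 217 and 222 bp past a start. Both carried RUNX2 peaks in both day 3 libraries, at 4.68 and 5.43-fold for Panx3 and 5.07 and 5.1 for Spp1. Dlx3, a homeobox factor of bone and cartilage, gained 2 regions on chromosome 11, the larger at 11.9 and 7.01-fold on day 3, and 1 peak spanned both on day 10 (8.87 and 7.89).

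Ihh and Bmp3 were weak. Ihh, the signal of prehypertrophic cells, had 5.45 and 3.97-fold on day 3, with a −log10 q of 2.87 for the second, and 3.86 and 8.4 on day 10. Its summits lay 325 and 168 bp past the start on chromosome 1 (74951198 to 74951687), and no RUNX2 peak overlapped it. Bmp3, encoding an unusual BMP that opposes bone formation, had 5 and 6.7-fold on day 3 and no peak on day 10.

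The hedgehog and PTHrP list repeated Ihh and added Hhip, which encodes a membrane inhibitor of hedgehog ligands. That made 2 of 18 members (11.1%), against 2.89% of all coding genes. Only 3 of the 18 had no day 0 peak at an end. Hhip had 6.65 and 4.47-fold on day 3, no peak in replicate 1 of day 10 and 10.3-fold in replicate 2, with summits 288 and 133 bp past its start on chromosome 8 (80057480 to 80058116). The list's count was 0 under both stricter settings.

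**Figure D4:**
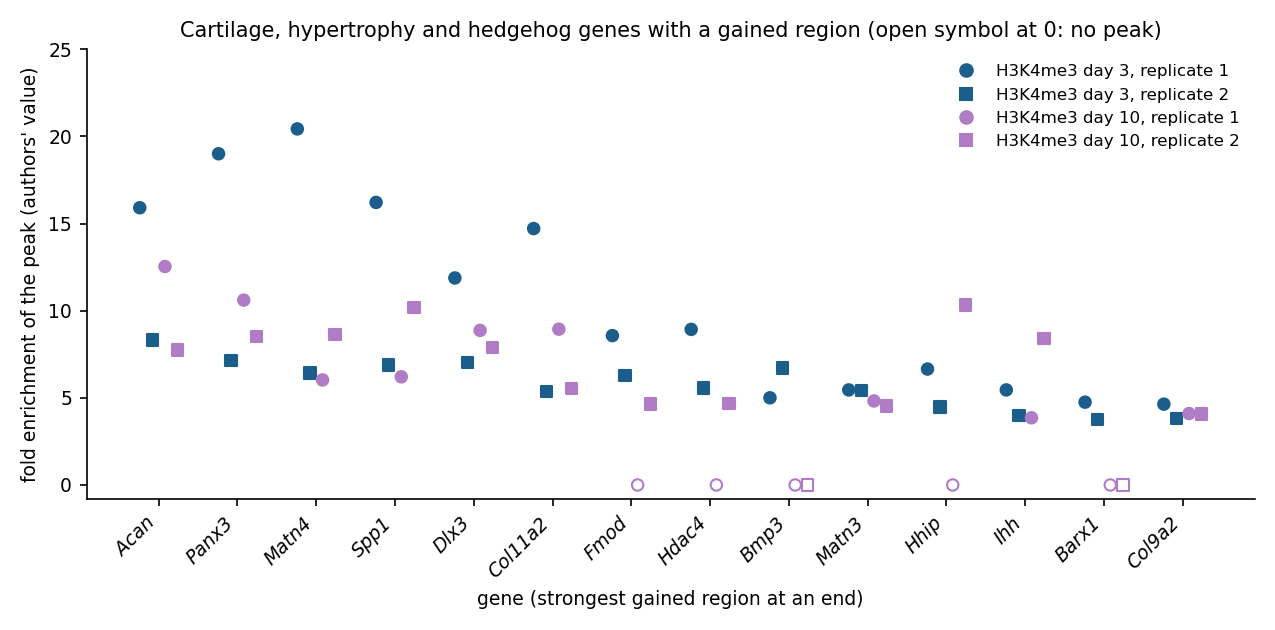
Fold enrichment (the authors' value) of the strongest gained region at an end of each gene of the cartilage matrix, chondrocyte factor, hypertrophy and hedgehog lists, in the 2 day 3 and 2 day 10 H3K4me3 libraries; none had a peak on day 0, and open symbols at 0 mark no peak. Replicate 1 of day 3 exceeds replicate 2 at all genes but Bmp3. The medians over all gained regions differ the same way (7.60 and 4.85), so this is not particular to these genes. Bmp3 and Barx1 have no peak on day 10.

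Chondrocyte transcription factors were mostly marked already. Of 24 members 19 had a day 0 peak at an end. Of the other 5, Barx1 and Hdac4 had a gained region at an end (8.33% of 24, against 2.89% of all coding genes). Barx1, a homeobox gene of cartilage primordia, was near the threshold at 4.75 and 3.74-fold with no peak on day 10. Hdac4, which encodes a deacetylase that restrains RUNX2, had 8.93 and 5.57-fold on day 3 and 4.66 in replicate 2 of day 10. That region lay at an end of the span, with summits at -15265 and -15304 bp from the start in the promoter table.

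Counted over the whole span, 8 of the 24 factor genes (33.3%) held a gained region, against 7.08% of coding genes. In Mef2c, whose product drives hypertrophy, a region with summits at -5338 and -5310 bp from a start had 13 and 11.6-fold on day 3, 6.71 and 10.6 on day 10, and RUNX2 peaks of 7.9 and 9.07-fold. In Sox6, partner of SOX9, a region with summits 746 and 259 bp past an internal start had 6.07 and 6.08-fold on day 3 and 7.65 in replicate 2 of day 10. In Runx1, a relative of RUNX2, 3 weaker regions lay inside the span (5.87 to 8.06-fold in replicate 1, 4.2 to 5.36 in replicate 2). Longer genes offer more room for such regions, so a span share is not a share per length.

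Wwp2, which encodes a ubiquitin ligase and hosts the cartilage microRNA miR-140, held 5 gained regions among 20 H3K4me3 regions in its span, the joint highest number of any gene. Replicate 1 summits lay 22741, 33703, 66275, 84356 and 86607 bp past the transcript start. The first had 11.9 and 7.71-fold on day 3 and 5.46 and 6.67 on day 10. The second had 16.1 and 6.23 on day 3, then 3.46 and 7.99 on day 10. The other 3 had a peak in replicate 2 of day 10 only. The first pair carried RUNX2 peaks in both day 3 libraries. The start of Wwp2 and the stretch near its far end were marked in all 4 lists. So was a stretch 67.4 kb past the start (2.97 and 6.73-fold on day 0). These gains thus lay between existing regions, the third of them only 66 bp from a day 0 region.

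Pde4d and Ulk4 also held 5 gained regions each, and 11 genes held 4. Among these were Xylt1, which encodes the enzyme that starts chondroitin and heparan sulfate chains, the transcription factor genes Ets1, Nfix, Six3 and Zfhx3, and 3 predicted genes whose spans overlap (Gm37013, Gm38666, Gm38667) and so share regions. In all 1234 genes held 1 gained region in the span proper, 167 held 2 and 23 held 3. Length differed widely among the top genes, from 12.6 kb for Six3 to 1302 kb for Pde4d.

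In the WNT list 4 of 42 members (9.52%) had a gained region at an end, against 2.89% of all coding genes. Lgr6, an R-spondin receptor gene, had 8.35 and 5.29-fold on day 3 and 4.34 and 7.14 on day 10, and Sfrp4, a secreted WNT inhibitor gene, had 10 and 5.97 on day 3, then 4.1 and 6.49 on day 10. The regions at Fzd7 and Ctnnb1 flanked regions covered on day 0, 218 and 120 bp away, with 12.1 and 3.5-fold and 11.4 and 4.7-fold on day 3.

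In the BMP and TGF-beta list 2 of 39 members (5.13%) had a gained region at an end, against 2.89% of all coding genes. They were Bmp3 and the joint ligand gene Gdf5 (10.9 and 5.95-fold on day 3, 6.28 in replicate 2 of day 10). This count and those of the lists that follow are too small to be read as results about a list. In the growth factor list 2 of 38 (5.26%) did, Fgf10 with 9.85 and 5.05-fold and Pdgfra with 10.7 and 4.43-fold on day 3. FGF10 is a limb bud signal and PDGFRA a receptor of mesenchymal cells. On day 10 both had a peak in replicate 2 only, at 8.39 and 5.03-fold. In the limb patterning and HOX list 3 of 40 (7.5%) did. Tbx15 had 7.73 and 5.35-fold, while Hoxd11 and Hoxc10, both with a day 0 peak at an end, had 4.54 and 4.55-fold and 6.57 and 3.88-fold.

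Over whole spans the counts were 8 of 42 WNT genes (19.0%), 8 of 38 growth factor genes (21.1%), 7 of 39 BMP and TGF-beta genes (17.9%) and 8 of 37 adhesion and YAP genes (21.6%), against 7.08% of coding genes. They were 10 of 27 (37.0%) for cartilage matrix, 6 of 16 (37.5%) for the endothelial list, 4 of 16 (25%) for blood and 2 of 17 (11.8%) for skeletal muscle. The genes named next were chosen after their values were seen. Wif1, which encodes a secreted WNT inhibitor, held a region 62262 and 62335 bp past its start at 15.7 and 5.28-fold on day 3. Igf1r, the gene of the IGF1 receptor, held 3 regions at 6.09 to 13.2-fold in replicate 1 and 3.98 to 4.55-fold in replicate 2. Wwtr1, which encodes the YAP partner TAZ, held 2, with 9.03 and 5.29-fold and 7.6 and 6.31-fold, both with RUNX2 peaks in the 2 day 3 libraries. Most of these genes already had a day 0 peak at an end.

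Some of these counts moved with the threshold. With −log10 q of at least 5, the growth factor list had 6 of 38, now with Fgf9, Fgf18, Igfbp4 and Egfr, the neuronal list 4 of 16, and the adhesion and YAP list 1 of 37. Of all coding genes 3.25% had a gained region at an end at that setting. With equal numbers of top peaks no list had more than 2, and 1.07% of all coding genes had one.

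Matrix synthesis and turnover lists had 1 or 2 members each with a gained region at an end, where 2.89% of all coding genes had one. Counts this small are not read as results about these lists. Collagen processing held Plod2, a lysyl hydroxylase gene, in 1 of 30 (5.76 and 3.71-fold on day 3). Proteoglycan synthesis held 2 of 35: Extl3, a heparan sulfate transferase gene (11.4 and 6.62-fold), and Papss1, whose enzyme makes the sulfate donor (22.8 and 7.87-fold, 173 bp from a day 0 region). Matrix proteases held 2 of 31: Adamts4, an aggrecanase gene (14.3 and 4.38-fold), and Adamtsl2 (6.31 and 3.3-fold). On day 10 all 5 had a peak in replicate 2 and none in replicate 1.

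Adhesion and YAP genes held 3 of 37 (8.11%), against 2.89% of all coding genes. They were the collagen receptor gene Itga10, whose integrin is typical of chondrocytes, Itga2 (4.84 and 3.4-fold on day 3) and Ccn3. The same 2.89% stands beside the lists that follow, and counts this small are not read as results about them. Hypoxia and glycolysis held 2 of 30, Adm and Pgk1. The cell cycle list held 4 of 37 (10.8%), Ccnd1, Ccnd3, Cdk2 and Cdkn2c, of which 3 already had a day 0 peak at an end. The H3K4 methylation list held 2 of 20, Setd1a and Men1, again both marked on day 0, and housekeeping genes held 1 of 20. The regions counted for Cdk2, Setd1a, Cd4 and Cldn7 lay nearest to Rab5b, Hsd3b7, Gpr162 and Elp5, so they belong at least as well to those neighbours.

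Lists of other cell types were examined in the same way, beside the same share of 2.89% of all coding genes. With 15 to 18 members each, counts of 0, 1 or 2 are not read as results about a list. Skeletal muscle held 0 of 17 and pluripotency 0 of 18, while adipocyte, epithelial and neuronal lists held 1 of 15, 1 of 15 and 1 of 16. Tendon and fibroblast held 1 of 18 (Pdgfra) and blood 2 of 16. The endothelial list held 3 of 16 (18.8%): Erg (15.2 and 6.69-fold on day 3, 8.2 and 8.86 on day 10), Sox18 (10.5 and 9.51, then 5.79 and 7.85) and Kdr, the last at the far end of the span with summits 44931 and 44881 bp past its start. A further 3 endothelial members, Fli1, Vwf and Esam, held a gained region inside the span, and Cdh5, Pecam1 and Tek had no peak at an end on days 0 or 3. What part cells of another type play in these regions was not tested.

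Across the 24 lists, 48 distinct genes of 615 had a gained region at an end, where 632 of 21887 coding genes (2.89%) did. Every list was above that share except skeletal muscle and pluripotency, which held 0. Housekeeping (5%), neuronal (6.25%), epithelial (6.67%) and blood (12.5%) genes were above it too. A share above 2.89% is therefore not particular to the cartilage, hypertrophy or hedgehog lists. In 42 of the 48 both day 3 summits lay within 1 kb of an end of the span. In 21 both summits lay within 1 kb of a start in the promoter table, in 13 they lay further off, and 14 had no start in that table. On day 10 the gained region carried a peak in both lists at 18 of the 48, in replicate 2 only at 25 and in neither at 5.

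The 10 genes with the best mean percentile of day 3 fold, among those with both summits at a gene end, were Adm, Prr15, Ppp1r1b, Duxbl3, 2610507B11Rik, Gper1, Cmklr1, Chrdl2, P2ry2 and Papss1. Adm led, with a 4215 bp region on chromosome 7 (110627350 to 110631564) at 15.7 and 12.3-fold on day 3 and 8.44 and 9.17 on day 10. Ppp1r1b, which encodes the phosphatase inhibitor DARPP-32, had 25.2 and 8.71 on day 3 and 13.3 and 11.8 on day 10. Gper1, a membrane oestrogen receptor gene, had 23.6 and 8.2 on day 3 and 4.73 and 11.2 on day 10. All 10 had a peak in replicate 2 of day 10, and all but Duxbl3 and Papss1 also in replicate 1.

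Others of the 10 spanned several roles. Cmklr1 encodes the chemerin receptor (10.8 and 11.2-fold on day 3), Chrdl2 a secreted BMP antagonist (12.8 and 10.7), and P2ry2 a receptor for extracellular ATP (12.4 and 10.4). Prr15 had 14.5 and 12.2-fold, and Duxbl3, one of several near-identical Dux-like copies where reads can map to more than 1 place, had 14.3 and 11.5 and no peak in replicate 1 of day 10. The regions at 2610507B11Rik (20.4 and 9.41) and Papss1 lay 126 and 173 bp from a day 0 region. The best-ranked gained region overall lay inside Pdlim3, encoding an actin-associated protein of muscle (chromosome 8, 45916537 to 45917810), at 21.3 and 14.2-fold on day 3.

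A gained region lay within 1 kb of an end of 12 microRNA genes. MicroRNAs pair with targets through the seed at bases 2 to 8. Among these was Mir210, whose product is a classic hypoxia-induced microRNA, with a region 680 bp upstream of the hairpin on chromosome 7 (141222173 to 141223002) at 10.9 and 5.02-fold on day 3 and a peak in replicate 2 of day 10. Mir130b and Mir301b, neighbours on chromosome 16, shared a region 659 and 305 bp upstream of their hairpins (17124801 to 17125582) at 10.5 and 4.64-fold, with peaks in both day 10 lists and both RUNX2 lists. That region also lay within 1 kb of a coding transcript start, so it may belong as well to a coding gene. The microRNA genes named here were picked from the 12 after their values were seen. The 3p mature sequences of Mir210 and Mir130b, from RefSeq (GRCm38.p6), are given with the seed in capitals.
mmu-miR-210-3p, - strand, chr7:141221407-141221428: cUGUGCGUgugacagcggcuga
mmu-miR-130b-3p, - strand, chr16:17124071-17124092: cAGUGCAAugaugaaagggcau

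Ends of microRNA genes held 12 of the 3188 gained regions (0.376%) and 142 of the 11430 regions of all 4 lists (1.24%), where ends of any gene held 29.4% and 87.1%. Long noncoding RNA gene ends held 316 gained regions (9.91%) against 16.2% of those in all 4 lists. Pseudogene ends held 51 (1.6%) against 1.03%.

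The promoters under gained regions were intermediate in CpG content. Over the 396 promoters of 365 genes that overlapped a gained region and none in all 4 lists, the median was 13 CpG in 300 bases (interquartile range 7 to 22), with 58.3% G or C. Promoters under regions of all 4 lists (10363) had a median of 23 CpG, and promoters with no H3K4me3 region in the 4 lists (9259) had 3. Acan and Ihh, shown above with 31 and 30 CpG, thus had more than the median of even the promoters marked throughout, and Fmod and Spp1, with 3 each, equalled the unmarked ones.

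For each motif searched, the share of promoters under gained regions lay between those of promoters marked throughout and promoters with no region. TGTGGT, on either strand, occurred in 13.1% of the 396 promoters, against 15.0% of all 21263 promoters, 10.7% of those marked throughout and 20.3% of those with no region. ACAAAG or ACAATG on either strand, the SOX motif, occurred in 19.9%, 25.7%, 17.3% and 36.2% of the same sets. The hypoxia core ACGTG occurred in 17.2%, 20.9%, 27.3% and 13.8%. TATAAA on the transcript's strand occurred in 7.32%, 8.26%, 3.54% and 14.1%. Base composition differed between these sets, as the CpG and G or C values show, and its part in the shares was not tested.

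Day 10 libraries were not used by the rule, but they are a later time and not replicates of day 3. A gained region without a day 10 peak may have lost the mark or lie below the caller's threshold, which these lists cannot tell apart. A peak was present in both day 10 lists at 589 gained regions (18.5%, exact 95% interval 17.1 to 19.9%), in replicate 2 at 83.8% and in replicate 1 at 18.6%. The 2 day 10 lists therefore disagree widely, and the value without replicate 1 of day 10 is 83.8%. Both day 10 lists held a peak at 51.4% (49.6 to 53.3%) of regions with 1 day 0 list and at 98.6% of those in all 4 lists. At regions of a single day 3 list the share was 1.15% for replicate 1 and 0.135% for replicate 2. Without 1 library of day 0 or day 3 at a time the share ran from 5.25 to 33.4%.

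Day 10 presence rose with day 3 strength. Regions were placed in 4 bands by the mean percentile of their fold within the 2 day 3 lists. From the weakest band to the strongest, 2.63%, 10.2%, 31.7% and 58.9% of gained regions (of 380, 1567, 1146 and 95) had a peak in both day 10 lists. In the band from 40 to 60, the share was 31.7% (29.0 to 34.5%) for gained regions and 50.8% (48.1 to 53.5%) for regions with 1 day 0 list. It was 90.4% for regions of all 4 lists. In the 2 weaker bands the intervals of the first 2 classes overlapped. The intervals cover counting error over regions only and leave out the spread between libraries. Leaving out 1 library of day 0 or day 3 moved the share over all gained regions between 5.25 and 33.4%, so no difference between classes is read from the intervals.

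By position, the share of gained regions in both day 10 lists was 31.5% (27.3 to 35.9%) at transcript starts and 32.8% at other coding gene ends, 21.5% at noncoding gene ends, and 14.0% and 13.1% inside and between genes. In the longer list of replicate 2 alone the shares were 87.3%, 87.0%, 87.1%, 79.6% and 84.0%. Median percentiles of day 3 fold at the 5 places were 37.9, 38.2, 37.8, 32.9 and 35.7, and the part of strength in the difference was not tested. Among the cartilage and hypertrophy genes with a gained region at an end, Acan, Matn3, Matn4, Col11a2, Col9a2, Spp1, Panx3, Dlx3 and Ihh were in both day 10 lists.

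RUNX2 peaks of day 3 were the other readout that the rule did not use. They overlapped 867 gained regions (27.2%, exact 95% interval 25.7 to 28.8%) in both RUNX2 libraries, and 45.9% and 29.4% in replicates 1 and 2. The share was 71.9% (70.2 to 73.6%) for regions with 1 day 0 list and 99.5% for regions in all 4 lists, so RUNX2 overlap was near complete at regions marked throughout. It was 1.66% and 0.303% at regions of a single day 3 list. On days 0 and 10 the RUNX2 lists held 97 to 108 peaks each, so that no change of RUNX2 across days can be read at these regions.

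RUNX2 overlap also rose with H3K4me3 strength, from 4.47% and 16.7% through 45.5% to 70.5% of gained regions in the 4 bands, against 22.9%, 39.0%, 74.8% and 91.8% of regions with 1 day 0 list. It was 41.2% at transcript starts, 36.8% at other coding gene ends, 21.3% inside genes and 23.3% between genes. Of the 48 list genes 19 had a RUNX2 peak in both libraries at the gained region. Without 1 library of day 0 or day 3 the overall share ran from 7.69 to 47.7%, and without replicate 2 of RUNX2 it was 45.9%.

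**Figure D5:**
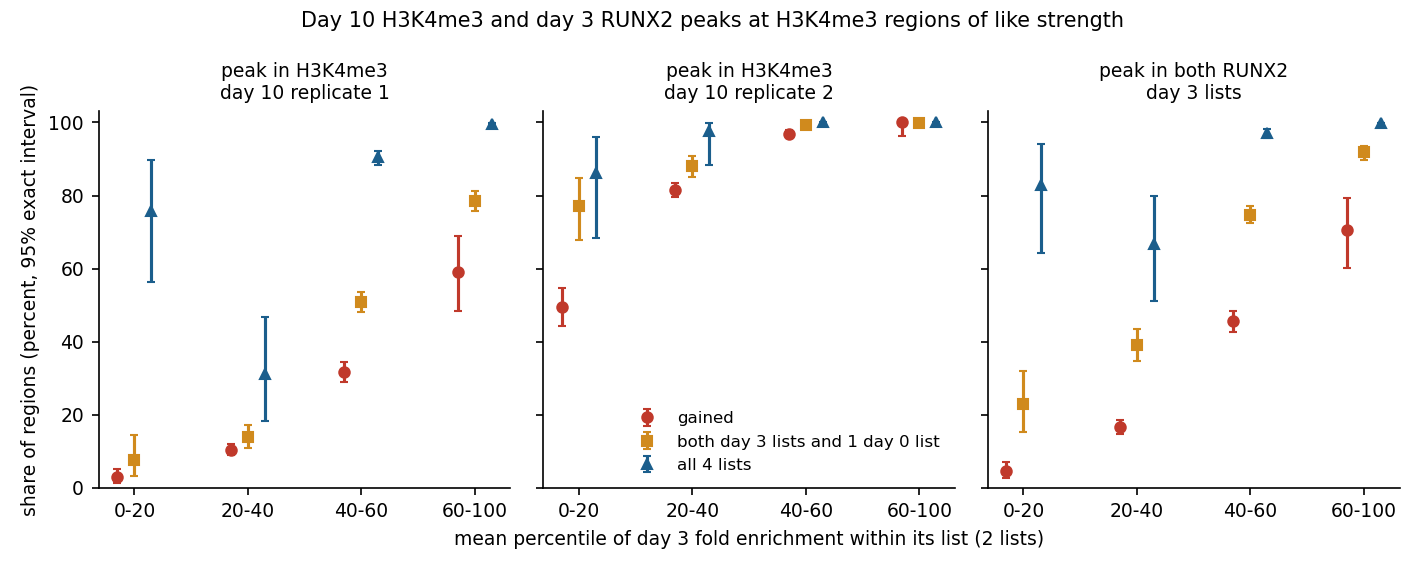
Share of regions (percent, bars are exact 95% intervals) with a peak in each day 10 H3K4me3 list and in both RUNX2 day 3 lists, in 4 bands of the mean percentile of day 3 fold enrichment. Gained regions lie lowest in every band for replicate 1 of day 10 and for RUNX2, where their share goes from 4.47% to 70.5%; for replicate 2 of day 10 all 3 classes are near 100% in the strongest band.

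The 4 lost regions lay inside Gse1 (chromosome 8, 120231705 to 120232235; 3.48 and 5.07-fold in the day 0 lists), at a start within Fam71f1 (chromosome 6, 29318223 to 29319122; 3.75 and 4.21-fold), inside Mapre2 (3.92 and 4.37-fold), and 48162 bp from Dad1 at a noncoding gene end (chromosome 14, 54186717 to 54187928; 2.7 and 8.54-fold). The last value was above that library's median of 6.79, and the other 3 regions were below it. At Fam71f1 replicate 2 of day 10 had a peak again (3.9-fold), and at the other 3 no H3K4me3 peak was listed on day 10. No list gene stood at a lost region.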

How the data were processed

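The deposited peak lists of the 4 H3K4me3 libraries of days 0 and 3, and for comparison those of day 10 and of RUNX2, were used. Per the submitters' processing notes, 75 bp reads were handled with FastQC, Trim Galore, HISAT2 2.2.0 and MACS2, and the notes name build GRCm39. The coordinates instead fitted GRCm38.p6: 34.2 to 65.8% of H3K4me3 summits lay within 1 kb of a RefSeq start, and 2.44 to 3.03% after a shift of 20 kb. Each deposited line gives a score, a fold enrichment (ratio) over the caller's background, a −log10 p-value and a −log10 q-value, in the standard narrowPeak column order, as the authors' caller wrote them. Peaks were called per library, and depth is unknown.

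Peaks on assembled chromosomes were merged over the 4 lists where they overlapped by at least 1 bp, and a region's value in a library is its strongest peak's. Windows reached 1 kb either side of the ends of 21887 coding genes, or of transcript starts, which the promoter table gives for 17492 of them. Shares carry exact Clopper-Pearson 95% intervals. The scripts were tested on simulated lists. Tools were Python 3.11.15, pandas 2.3.3, numpy 2.4.6 and scipy 1.17.1.

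Named genes were list members with a gained region at an end (values for up to 30), the 10 best ranked by day 3 fold with both summits at an end, the 10 genes with most gained regions (14 with ties), genes at lost regions, and Sox9, Col2a1, Acan and Runx2. Genes with a gained region only inside the span (such as Prelp, Mef2c, Sox6, Runx1, Wif1, Igf1r and Wwtr1), Pdlim3 and the microRNA genes were named after their values were seen. Members and lists were chosen with earlier results of these data known. No single region was tested: lists hold no value where no peak was called, and an exact permutation of 2 against 2 cannot go below p = 0.333. Alternatives were a stricter q, equal numbers of top peaks, wider merging, other windows and leaving out libraries. The 2 input samples were not analysed here.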

Additional observations from a re-analysis of the deposited data

How the results depend on the processing

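With each list held to the same number of top peaks, gained regions numbered 688 and lost regions 59, genes with a gain at an end 234, and the shares were 31.0% at a gene end, 41.3% in both day 10 lists, 35.0% with RUNX2 in both lists and 7.56% within 2 kb of a day 0 region; of those 688 regions 221 overlapped the 3188. With −log10 q of at least 5 there were 2 lost regions, and the same shares were 24.1%, 24.1%, 37.9% and 8.01%. Merging peaks up to 500 bp apart gave 2 lost regions and 5.36% near a day 0 region. Counting ends of all annotated genes gave 1050 genes and 29.4%, windows of 2.5 kb gave 25.4%, transcript starts alone 14.8%, and a distance of 5 kb 21.3%. Leaving out 1 library in turn gave 3290 to 13686 gained and 6 to 1853 lost regions, 663 to 1762 genes, 10.3 to 28.1% at a gene end, 5.25 to 83.8% in both day 10 lists, 7.69 to 47.7% with RUNX2 and 7.41 to 18.4% near a day 0 region. Gains exceeded losses in all these settings. Both deposited day 3 lists were longer than either day 0 list, and only the setting with equal numbers of top peaks makes the lengths equal. The part of list length in the excess was not tested. Taking the replicate numbers as a block (gained or lost in both same-numbered pairs) gives 3188 and 4 by construction, since the rule already asks for both pairs. The lack of read totals and the 2 libraries per day limit every value.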

Other observations

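Gained regions were also counted along the chromosomes, and the windows named here were chosen after their values were seen. Their share of all regions, 8.81% over the 36171, ran from 6.19% on chromosome X to 12.4% on chromosome Y (13 of 105). The run of windows with most gained regions was chromosome 8 from 20.0 to 20.8 Mb. There 29 of 159 regions (18.2%) were gained, 1 of them at a coding gene end. All 29 had a peak in replicate 2 of day 10, none in replicate 1 and none in both RUNX2 lists, and their median fold was 2.62 and 3.08 on day 3. A window of chromosome X from 126.6 to 126.8 Mb held 9 gained of 36 regions (25%), 2 of them in replicate 2 of day 10. Their median folds on day 3 were 3.43 and 4.05. Both stretches were below the medians of all gained regions, 7.60 and 4.85.

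In the HOX clusters, which pattern the body axis and limb, 6 of 33 regions (18.2%) were gained in HoxC and 6 of 33 (18.2%) in HoxD. HoxA had 3 of 28 (10.7%) and HoxB 0 of 21, against 8.81% of all 36171 regions. Counts this small are not read as results about a cluster. Of the 6 in HoxD 1 had a peak in both RUNX2 lists, and of those in HoxA and HoxC none did. HoxA, HoxB, HoxC and HoxD held 13, 13, 14 and 11 regions covered on day 0. No test of the difference between clusters was made.

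Round Sox9, the gene of the master factor of cartilage, 2 gained regions lay within 1 Mb, at 112173636 to 112174732 (7.35 and 3.61-fold on day 3) and 112609503 to 112611381 (9.17 and 3.48-fold) on chromosome 11. Each had a peak in replicate 2 of day 10 and none in replicate 1. Chromosome 11 as a whole held 219 gained regions, 9.28% of its 2359 regions. No like count was made round other genes, so the 2 regions are not read as particular to Sox9.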
